A study of Mus musculus with 6 samples.

Results

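The proteasome genes of the mouse array were taken as all genes whose symbol starts with Psm, then a letter from a to g, then a digit, leaving out Psmb8 and Psmb9, with 1 probe set kept per gene, the one with the highest mean over the arrays. This gave 44 genes of the 8251 that the arrays measure under a single gene symbol. The study used mice overexpressing HuD, an RNA-binding protein encoded by Elavl4, and holds 6 samples of hippocampus total RNA, each on its own array. No label gives a sample's genotype, strain, age, sex or treatment, the promoter of the transgene, or whether animals were pooled, so all 6 samples stay without a group and go by their title numbers, 1 to 6. No comparison of overexpressing with control mice was possible, no difference between samples was tested, and differences between samples stand without replicates. Sample 2 differs from the rest in a title code whose meaning is not given.

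The rule also takes in genes that are not subunits. Psmg1 to Psmg4, Psmd5, Psmd9 and Psmd10 encode chaperones that help assemble the particle, and Psme1, Psme3 and Psme4 encode activators that dock on it. Psmc3ip, a factor of meiotic recombination, and Psme3ip1, a nuclear protein that binds the activator encoded by Psme3, are only named after a partner. The set is therefore called proteasome genes here. Without Psmc3ip and Psme3ip1 the median range stayed at 0.32, and the mean correlation given below was 0.26 in place of 0.24.

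The proteasome is the protease that removes most short-lived and damaged proteins marked with ubiquitin. Its core particle, the 20S, is a barrel of outer rings of alpha subunits, which gate the entry, around inner rings of beta subunits, of which some cut proteins. The 19S cap recognises ubiquitin, removes it, and unfolds the substrate with a ring of ATPases. In neurons the proteasome is known to shape synapses by removing synaptic proteins, and cells are known to keep its subunits in step through shared transcription factors such as the one encoded by Nfe2l1.

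Values are given first as the deposited signal, an intensity on a linear scale. For ratios and ranges, signals were divided by the array's median over non-control probe sets, raised to at least 0.2 and put on the log2 scale, so that 0 is the array median. Unscaled signals below are the deposited ones without this division. They already share a level, as the mean between percentiles 2 and 98 was 150.0 on each array. Genes whose median over samples exceeded the array median were called expressed, which held for 39 of the 44 proteasome genes and for 4838 of all genes. Range means the highest minus the lowest log2 value of a gene. The array medians lay between 59.9 in sample 3 and 63.3 in sample 4, and this low median of sample 3 bears on each statement about that sample. Neither a measurement error per value nor detection calls were at hand. In bulk tissue, fewer cells of a type and less RNA per cell cannot be told apart.

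Proteasome genes were bright and steady from sample to sample. Of the 39 expressed genes, 38 lay above the array median in every sample, and Psme4 lay under it in sample 5. Their median range was 0.32 on the log2 scale (1.25-fold), against 0.40 (1.32-fold) over all expressed genes, with a lowest of 0.11 for Psmd13 and a highest of 0.81 for Psmb2. The ratio of highest to lowest sample passed 1.5-fold for 6 of 39 genes (15.4%), against 23.7% of all expressed genes. The count was 3 without sample 5 and 4 to 6 with another sample left out: Psma6, Psmd1 and Psme4 no longer passed without sample 5, Psmd1 and Psmd5 without sample 3, Psmb2 without sample 1, and Psmg1 without sample 4 and again without sample 6. Ranges shrink as genes get brighter, and 32 of the 39 lay in the brighter 2419 of the expressed genes. There the proteasome genes had a median range of 0.32 and 4 of 32 (12.5%) passed 1.5-fold, against 0.34 and 12.3% for all genes of that portion. With all expressed genes split into 10 bins of level, 21 of 39 proteasome genes had a range below the median of their bin. The steadiness of proteasome genes was thus near that of other genes of like brightness.

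**Figure D1:**
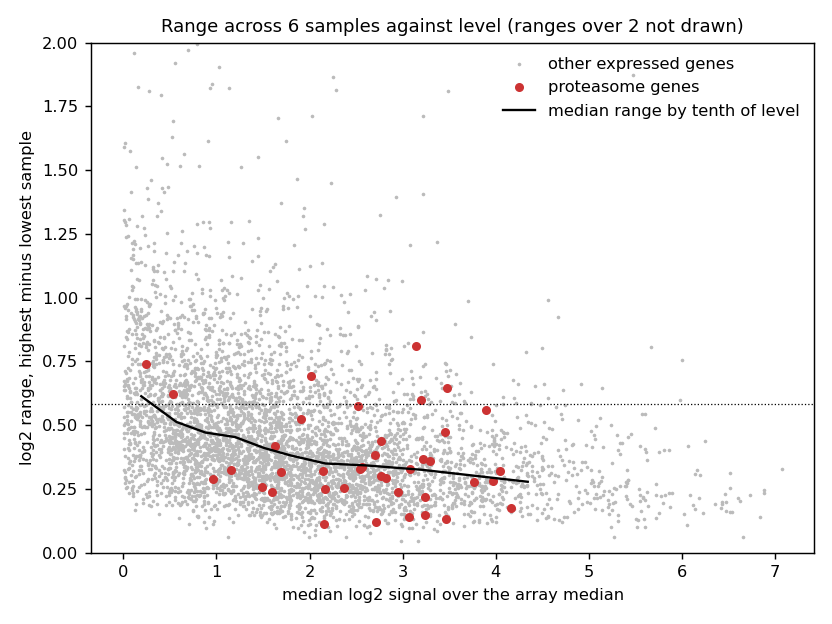
Log2 range over the 6 samples (vertical axis) against the median log2 signal over the array median (horizontal axis) for the 39 expressed proteasome genes (red) and all other expressed genes (grey), with the median range of all expressed genes in each of 10 bins of level (black line) and 1.5-fold (dotted). The red points lie on both sides of the black line, 21 of 39 below their bin's median, and the highest is Psmb2 at 0.81. The 25 genes with a range over 2 are not drawn.

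Among the 7 genes of the alpha ring, Psma6 alone passed 1.5-fold. Psma6 had signals of 666, 719, 670.2, 697, 473 and 717 in samples 1 to 6. Sample 5 stood below the others, which lay close together: the next lowest sample was 1.42 times sample 5 after scaling, and the highest 1.57 times. The steadiest member of the ring was Psma3, with signals of 1035, 1139, 1084, 1179, 1120.0 and 1119.5, a range of 0.18 and its lowest value in sample 1. Its probe set is of a type whose name marks probes shared within a gene family, so it may not be specific to Psma3. Psma7 had 441, 422, 504, 467, 449 and 443, highest in sample 3 and otherwise nearly level (1.22-fold). Psma1, Psma2, Psma4 and Psma5 ranged from 1.21-fold to 1.26-fold, all with their highest value in sample 3.

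The beta ring holds the proteolytic sites. Psmb5, which carries the chymotrypsin-like site, had signals of 576, 699, 706, 611, 626 and 601 in samples 1 to 6, a range of 0.36. Samples 2 and 3 were high and sample 1 was lowest. Psmb6, which carries the caspase-like site, had 299, 435, 364, 343, 339.5 and 441, a range of 0.58 (1.49-fold). Samples 2 and 6 stood above the other 4, and sample 1 was lowest. Psmb7, which carries the trypsin-like site, had 508, 516, 504, 554, 539.5 and 499, a range of only 0.14 (1.10-fold), the narrowest of the ring, on a probe set marked as shared within a gene family. Psmb10, the immunoproteasome counterpart of Psmb7, had 345, 329, 316, 321, 291 and 291, a range of 0.25 (1.19-fold) with samples 5 and 6 lowest. Among the chosen probe sets of the 3 constitutive sites, Psmb6 thus differed most between samples and Psmb7 least. A dimmer second probe set of Psmb5 ranged 1.55-fold, wider than Psmb6, likewise lowest in sample 1 but highest in sample 4.

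Of the beta subunits without a site, Psmb2 varied most of all proteasome genes. Psmb2 signals were 344, 551, 577, 554, 465 and 578 in samples 1 to 6, a range of 0.81 (1.76-fold). Sample 1 was the lowest, sample 5 the next lowest at 1.35 times sample 1, and the other 4 lay close together. Psmb3 had 709, 706, 705, 665, 534 and 666, with sample 5 alone below the rest (1.39-fold). Psmb1 had 1037, 872, 1005, 1122, 1037 and 1035, with sample 2 lowest (1.25-fold). A second bright probe set of Psmb1 ran otherwise, at 456, 496, 527, 452, 426 and 428, highest in sample 3 and lowest in sample 5, so the sample order of Psmb1 depends on the probe set. Psmb4 ranged 1.22-fold and, like Psmb1, was highest in sample 4 and lowest in sample 2.

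Promoters are shown for Psmb5, Psmb6 and Psmc6 because all 3 were lowest in sample 1 and each holds a match to TGACNNNGC, a short form of the antioxidant response element through which factors of the Nfe2l1 and Nfe2l2 family are known to act. They were picked after their values were seen, from 6 expressed genes with a match. The windows are RefSeq sequences of build GRCm38.p6, running 5′ to 3′ from 250 bases before the transcript start to 50 after it, and capitals mark the match. Psmb5 lies on the minus strand at chr14:54617946-54618245, Psmb6 on the plus strand at chr11:70525107-70525406 and Psmc6 on the plus strand at chr14:45329574-45329873. The match is on the gene's own strand in Psmb5 and Psmb6 and on the opposite strand in Psmc6.
Psmb5: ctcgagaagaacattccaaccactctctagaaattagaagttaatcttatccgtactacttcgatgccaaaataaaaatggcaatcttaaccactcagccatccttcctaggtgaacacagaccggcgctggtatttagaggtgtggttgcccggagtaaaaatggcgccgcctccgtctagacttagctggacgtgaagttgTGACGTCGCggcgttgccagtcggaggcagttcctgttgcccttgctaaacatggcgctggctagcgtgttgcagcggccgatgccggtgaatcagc
Psmb6: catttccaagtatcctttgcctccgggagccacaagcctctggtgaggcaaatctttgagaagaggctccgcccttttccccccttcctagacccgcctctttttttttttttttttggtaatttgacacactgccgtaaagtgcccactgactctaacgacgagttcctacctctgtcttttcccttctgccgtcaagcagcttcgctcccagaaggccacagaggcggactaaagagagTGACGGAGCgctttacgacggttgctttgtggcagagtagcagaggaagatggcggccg
Psmc6: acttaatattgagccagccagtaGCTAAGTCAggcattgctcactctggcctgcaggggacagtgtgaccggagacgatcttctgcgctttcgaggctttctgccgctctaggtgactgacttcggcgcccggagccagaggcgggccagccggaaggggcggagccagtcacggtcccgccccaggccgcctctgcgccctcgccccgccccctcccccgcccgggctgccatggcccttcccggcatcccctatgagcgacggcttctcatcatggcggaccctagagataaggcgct

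The Psmb6 match ends at the last base before the start, the Psmb5 match 39 bases before the start and the Psmc6 match 219 bases before it. RefSeq windows were at hand for 37 of the 44 genes, 40 windows in all. TGACNNNGC on either strand was found in 6 of the 40 windows (15.0%), against 12.4% of all 32851 windows of this length. The other matches were in Psmd9, Psme4 and Psmd12, whose lowest samples were 3, 5 and 6. CCAAT, the box bound by NF-Y, was found on either strand in 14 of the 40 (35.0%), against 37.4% of all windows, and in none of the 6 with the first motif. Both shares lay close to those of all windows. A match is a description of these letters and not a binding site.

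The 19S base unfolds substrates with ATPases encoded by Psmc1 to Psmc6. Psmc6 had signals of 742, 1069, 930.3, 902, 902 and 1018 in samples 1 to 6, a range of 0.56 (1.48-fold). Sample 1 was lowest and samples 2 and 6 highest, as for Psmb6. Psmc1 was the steadiest ATPase gene, with 391, 398, 405, 403, 424 and 419.8 and a range of 0.12 (1.09-fold). Psmc2 and Psmc5 ranged 1.10-fold and 1.23-fold, both lowest in sample 5, and Psmc3 1.31-fold, highest in sample 3. All 3 Psmc3 probe sets, each marked as shared or less specific, were highest in sample 3 after scaling. Psmc4, an ATPase gene, was dim throughout, between 17.9 in sample 1 and 29.8 in sample 5, and is not shown to be above background.

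Among the other 19S genes, Psmd5 and Psmd1 passed 1.5-fold. Psmd5, an assembly chaperone of the base, had signals of 299, 264, 355, 233, 234 and 238 in samples 1 to 6, a range of 0.69 (1.61-fold). Sample 3 was 1.24 times the next highest, sample 1, and samples 4, 5 and 6 were level. Psmd1, a large scaffold subunit of the base, had 535, 619, 657, 514, 457 and 621, a range of 0.60 (1.51-fold), with sample 3 highest and sample 5 lowest, and in unscaled signals 1.44-fold, under the threshold. Psmd8, a lid subunit, just missed the threshold at 1.44-fold, with 247, 237, 232, 232, 172 and 215. Sample 5 was again the lowest, and the next lowest sample was 1.25 times as high.

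The rest of the cap was steadier. Psmd13, a lid subunit and the steadiest of all 39 genes, had 268, 270.3, 277, 286, 278 and 289 (1.08-fold). Psmd4, a ubiquitin receptor, ranged 1.11-fold, with 594, 596, 567, 569.9, 621 and 559. Psmd14, the deubiquitinase of the lid, had 341, 359.5, 411, 432, 378 and 360.0, with samples 3 and 4 highest (1.26-fold). Psmd3, a lid subunit, had 480.0, 459.5, 529, 493, 486 and 488, highest in sample 3 and lowest in sample 2 (1.18-fold). Psmd7, the partner of Psmd14 in the lid, ranged 1.36-fold, highest in sample 2 and lowest in sample 5, and Psmd11, another lid subunit, 1.29-fold, with a second probe set that was also highest in sample 2 and lowest in sample 1 and a dimmer one that was highest in sample 3 and lowest in sample 4. Psmd6 and Psmd12, also of the lid, ranged 1.16-fold and 1.20-fold, and Psmd9 1.25-fold. Psmd2, the other large subunit of the base, was dim throughout, from 6.71 in sample 3 to 32.7 in sample 1, and Psmd10 lay between 50.1 and 59.0, so neither is shown to be above background.

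The activators open the gate of the core particle in place of the 19S cap. Psme4, which encodes the large nuclear activator PA200, had signals of 74.1, 72.4, 67.6, 78, 48.8 and 81.2 in samples 1 to 6, a range of 0.74 (1.67-fold). Sample 5 was the lowest, the next lowest was 1.46 times as high, and the other 5 lay together. This gene is dim, with a median log2 value of 0.24, and its value in sample 5 lay under the array median. Psme1, an interferon-inducible activator subunit, had 170.3, 196, 192, 193, 189 and 185 (1.18-fold), with sample 1 lowest. Psme3, its nuclear relative, ranged 1.25-fold and was highest in sample 3. No Psmf gene met the rule.

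The Psmg genes encode the chaperones that assemble the core particle. Psmg1 had signals of 86.4, 80.7, 97.8, 107, 95.4 and 68.8 in samples 1 to 6, a range of 0.62 (1.54-fold), with sample 6 lowest and sample 4 highest. Psmg3 had 282, 288, 281, 285, 249 and 279, with sample 5 lowest (1.19-fold), on a probe set of a less specific type. A second Psmg3 probe set near the array median was at 100.4 in sample 1 and 21.5 in sample 6, a 4.68-fold ratio, and did not share that profile. Psmg4 ranged 1.25-fold, and Psmg2, at 40.1 to 58.8, had a median under the array median. Of the genes named after a partner, Psme3ip1 ranged 1.34-fold, highest in sample 1 and lowest in sample 2, and Psmc3ip was at 3.01 to 5.28, under the floor of 0.2 of the array median in every sample.

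**Figure D2:**
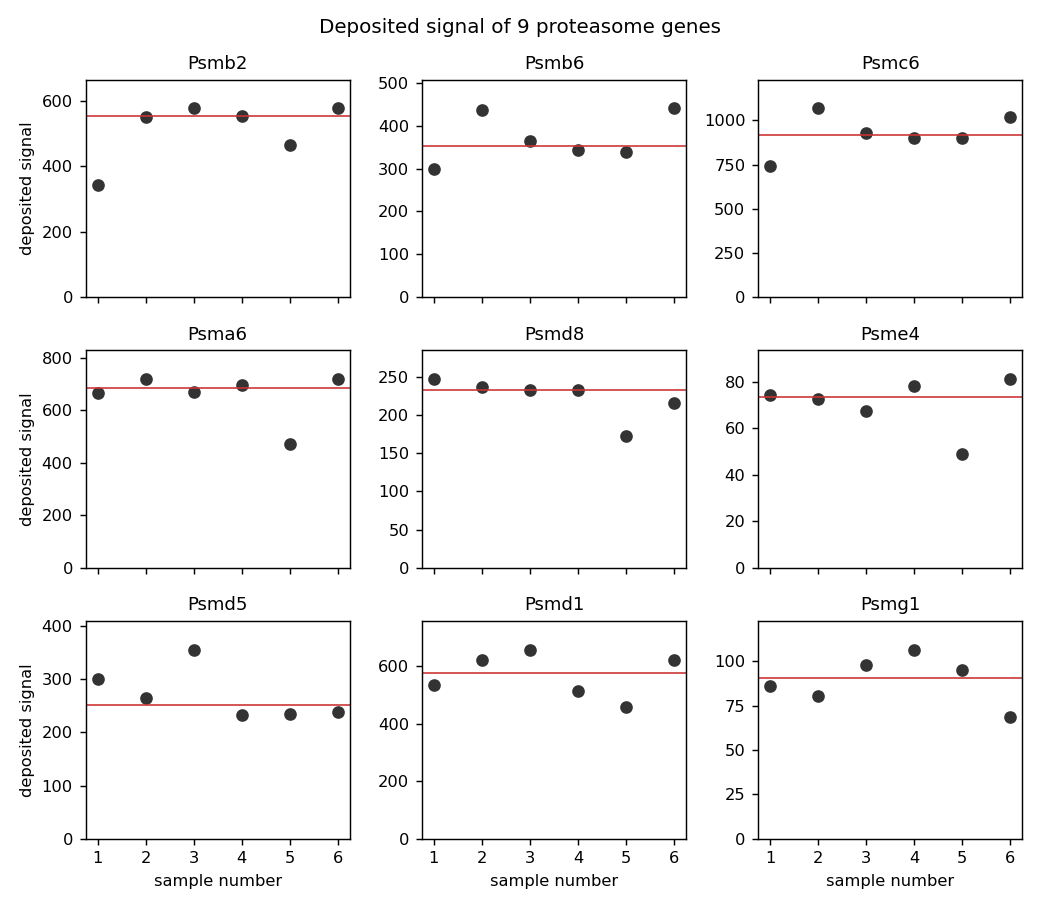
Deposited signal (vertical axis, from 0) of 9 proteasome genes in samples 1 to 6 (horizontal axis), 1 point per sample, with the median of the 6 as a red line. Psmb2, Psmb6 and Psmc6 were lowest in sample 1, Psma6, Psmd8, Psme4 and Psmd1 in sample 5, Psmg1 in sample 6, and Psmd5 stood out high in sample 3.

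Low values gathered in samples 1 and 5. The lowest sample was sample 1 for 12 of the 39 genes and sample 5 for another 12. The share for sample 1 was 30.8%, against 21.6% of all expressed genes, and that for samples 1 and 5 together 61.5%, against 41.6%. Samples 1 and 5 held the most lowest values among these same genes, so an excess of their joint share is partly built in. The share of all expressed genes for sample 5 alone was not computed with this scaling. Samples 2, 3, 4 and 6 held the lowest value for 6, 1, 4 and 4 genes, against background shares of 11.6%, 11.1%, 20.7% and 15.0%. The genes lowest in sample 1 were Psma3, Psmb2, Psmb5, Psmb6, Psmc1, Psmc6, Psmd6, Psmd11, Psmd13, Psmd14, Psme1 and Psmg4. Those lowest in sample 5 were Psma2, Psma4, Psma6, Psmb3, Psmb10, Psmc2, Psmc5, Psmd1, Psmd7, Psmd8, Psme4 and Psmg3. Both sets draw on the core particle, the cap, the activators and the chaperones. In unscaled signals the same 12 genes were lowest in sample 1 and the same 12 in sample 5, against 19.7% and 17.3% of all expressed genes. With quantile normalization 12 and 11 of these genes were again lowest in samples 1 and 5, with no share over all genes computed.

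High values gathered in sample 3, but this depended on the scaling. After scaling to the array median the highest sample was sample 3 for 19 of 39 genes (48.7%), against 31.1% of all expressed genes. Samples 1, 2, 4, 5 and 6 held the highest value for 4, 7, 6, 2 and 1 genes, against 17.3%, 15.6%, 12.6%, 12.1% and 11.4% of all genes. In unscaled signals sample 3 was highest for 12 genes, against 19.1% of all genes, and with quantile normalization for 11, with no share over all genes computed. Sample 3 was higher than sample 5 for 35 of 39 proteasome genes, against 64.3% of all expressed genes, with a median difference of 0.19 on the log2 scale against 0.08. In unscaled signals this held for 30 of 39 genes, against 51.3%. Samples 3 and 5 had the highest and the lowest score of these same genes in both settings. An excess over the share of all genes is therefore partly built in. Sample 3 also had the highest ratios of 3′ to 5′ signal for the transferrin receptor (3.47) and pyruvate carboxylase (3.56) controls, where the other samples lay at 2.54 to 3.02 and 1.57 to 2.61. For the actin and Gapdh controls this ratio was highest in sample 1 (1.27 and 0.86), with sample 3 at 1.21 and 0.82. The part of RNA quality in these values was not tested.

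**Figure D3:**
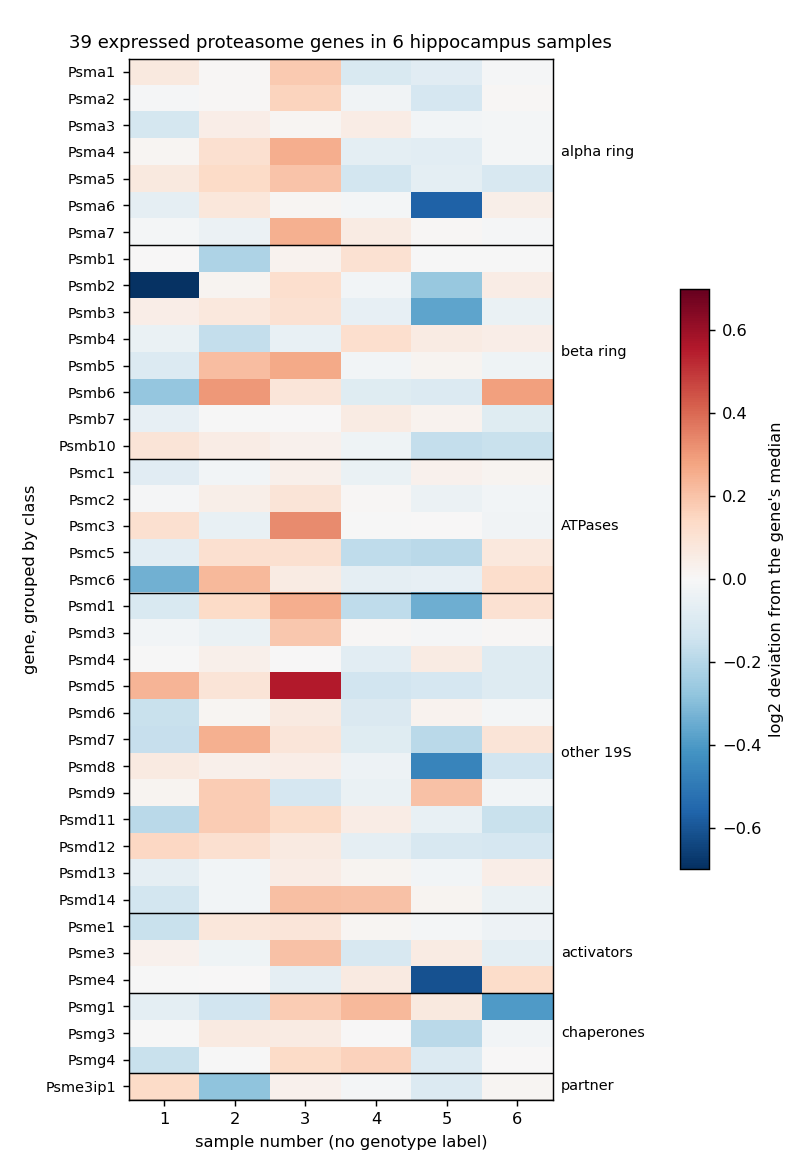
Log2 deviation of each of the 39 expressed proteasome genes (rows, grouped by class) from that gene's median over the samples (columns), after scaling to the array median, with red above and blue below. The column of sample 3 is mostly red, the deepest blue cells are Psmb2 in sample 1 and Psme4 and Psma6 in sample 5, and Psmd9, Psme4 and Psmb4 are below their medians in sample 3.

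As a whole the genes moved little. The score of a sample, a median over the 39 genes, each taken relative to its median over the samples, was -0.02, 0.04, 0.08, -0.02, -0.06 and -0.01 in samples 1 to 6. For all expressed genes the same measure was -0.01, 0.01, 0.05, -0.02, -0.01 and -0.01. Set against that measure, the proteasome score came to 0.04 in sample 3 and -0.05 in sample 5, and with quantile normalization these became 0.02 and -0.04. In unscaled signals the measure of all expressed genes was 0.0051 in sample 3, and the proteasome score set against it was again 0.04. Without sample 3 the score of sample 5 was -0.0052. With an odd number of samples a gene's median is 1 of its own values, which can set scores to 0. Samples 1, 4 and 6 had a score of 0 without sample 3, while that of sample 2 was 0.05. The low score of sample 5 is thus not shown to hold without sample 3. With all 6 samples the scores spread over 0.14 from lowest to highest, well under the ranges of Psmb2, Psme4, Psmd5 or Psma6. Those are the widest single genes, and a median over 39 genes tends to move less than such members.

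By class, the alpha ring and the chaperones had the widest scores. A median over few genes varies more, and that of the chaperones rests on 3. With the median over probe sets the chaperone scores of samples 5 and 6 were 0.013 and -0.40. The score of the alpha ring was 0.18 in sample 3 and -0.08 in sample 5, with the other samples between -0.02 and 0.05, and in unscaled signals and with quantile normalization it remained highest in sample 3 and lowest in sample 5. The beta ring ran from -0.05 in sample 1 to 0.06 in sample 3, the ATPases from -0.08 in sample 1 to 0.09 in sample 3, and the other 19S genes from -0.05 in sample 4 to 0.07 in sample 3. In unscaled signals and with quantile normalization the highest score was that of sample 2 for the beta ring and the other 19S genes, of sample 6 for the ATPases and of sample 4 for the activators. The 3 activators reached 0.08 in sample 3 and -0.04 in sample 6, and the 3 expressed chaperones 0.16 in sample 4 and -0.10 in sample 5.

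**Figure D4:**
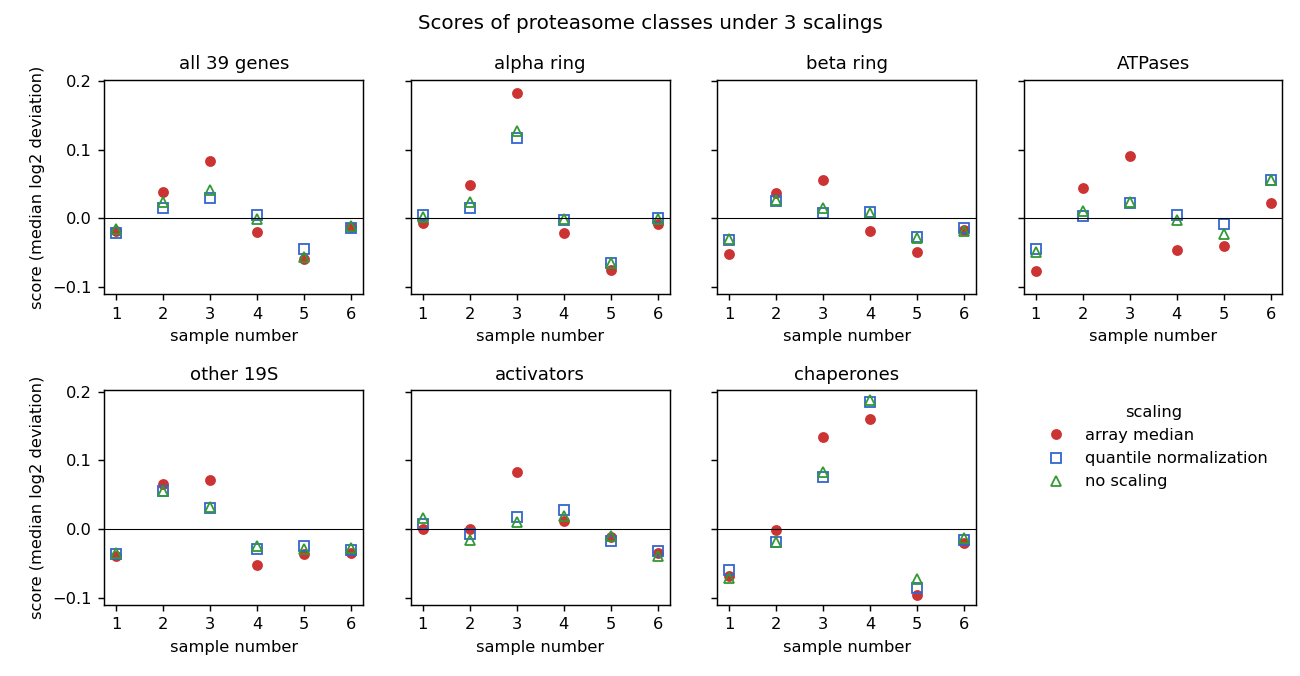
Score (median log2 deviation, vertical axis) of all 39 expressed proteasome genes and of each class in samples 1 to 6 (horizontal axis), with arrays scaled to their median (red), quantile normalized (blue) or left unscaled (green). Sample 3 drops in every panel when the median scaling is left out, and for all 39 genes and the alpha ring it stays the highest.

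Over the 6 samples, proteasome genes ran together slightly more than genes in general. Their mean pairwise Pearson correlation was 0.24, against 0.04 over all expressed genes and 0.09 over the brighter 2419, given as descriptions over 6 samples that share one scaling. Of the 741 pairs, 59 had r above 0.8 (7.96%), against 3.81% of all gene pairs, and 199 (26.9%) had r below 0, against 46.6%. The mean r of proteasome genes was 0.06 without sample 3, 0.07 with quantile normalization and 0.09 in unscaled signals, with 0.01, 0.0012 and 0.00038 for all genes. Within the alpha ring the mean r was 0.47, between alpha ring and ATPases 0.45, within the ATPases 0.38, within the other 19S genes 0.20 and within the beta ring 0.03. The classes share arrays and a scaling, and no order among these values was tested.

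The pairs named next were picked from the highest of the 741 correlations. Each rests on 6 samples, and several rest largely on 1 sample that stood apart. Psmb3, Psmd8 and Psmg3, all low in sample 5, had r between 0.95 and 0.97, and Psma6 and Psme4, low in the same sample, 0.96. Psmb6 and Psmc6, low in sample 1 and high in samples 2 and 6, had 0.95, and Psma7 and Psmd3, high in sample 3, had 0.98. Psmc2 was closest to the median of the other 38 genes (r of 0.97), although it ranged only 1.10-fold, with Psma4 next at 0.94 and Psma2 at 0.90. In unscaled signals Psmc2 ranged only 1.04-fold, so much of its scaled profile comes from the division by array medians that all genes share. Its r in unscaled signals was not computed. Psmb4, Psmd9, Psmb1, Psme3ip1 and Psmb7 had negative values against that median, -0.64, -0.48, -0.29, -0.20 and -0.05, while 34 of 39 genes were positive. The Psmb4, Psmb7 and Psmd9 probe sets are of shared or less specific types.

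Single samples stood apart for several genes. The gap between an extreme sample and its nearest neighbour, as a share of the whole range, passed Dixon's critical value for 6 values in 7 of 39 genes (17.9%), against 5.89% of all expressed genes. These were Psma6, Psmb3, Psme4 and Psmg3 with sample 5 low, Psmb1 with sample 2 low, and Psma7 and Psmd3 with sample 3 high. In unscaled signals 4 genes passed, without Psma7, Psmb1 and Psmd3, and with quantile normalization 5, without the same 3 but with Psmd8. The shares over all genes were not computed under these settings.

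Genes that work with the proteasome were compared as lists. Of 34 symbols listed for ubiquitin supply, shuttling and cofactors, which include older names of Ufd1 and Sem1, 17 genes were measured and expressed. Of these 1 passed 1.5-fold, against 6 of 39 for the proteasome and 23.7% of all expressed genes. That gene was Uchl5, a deubiquitinase of the cap, with signals of 114, 117, 134, 89.3, 72.4 and 95.1 in samples 1 to 6 (1.95-fold), highest in sample 3 and lowest in sample 5, the same extremes as Psmd1. The next widest was Ufd1, a cofactor of the unfoldase Vcp, at 1.48-fold. Nfe2l1, the transcription factor known to raise proteasome genes, lay between 744 in sample 4 and 853 in sample 3 (1.21-fold), and Pomp, the maturation factor of the core, ranged 1.22-fold with sample 6 highest. Sem1, a small lid subunit, ranged 1.23-fold, with sample 3 highest and sample 5 lowest. Odc1, Oaz2 and Azin1, of the ubiquitin-independent degradation of ornithine decarboxylase, ranged from 1.14-fold to 1.32-fold.

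The lists most like the proteasome in kind also stood high in sample 3. With quantile normalization the sample 3 scores given next became 0.07, 0.04 and 0.14 for the chaperonin, COP9 signalosome with eIF3, and antigen processing. The score of the chaperonin, a folding barrel with 8 expressed genes, was 0.15 there and -0.09 in sample 1, and its widest members were Cct2 (1.65-fold) and Cct8 (1.60-fold). COP9 signalosome and eIF3, whose subunits are relatives of the 19S lid, had 17 expressed genes, a score of 0.11 in sample 3 and -0.06 in sample 5, and Eif3a (1.77-fold) and Cops5 (1.43-fold) as the widest. The 16 expressed ubiquitin-conjugating enzymes had their lowest score, -0.09, in sample 4. Of the 16, 4 passed 1.5-fold, near the 23.7% of all expressed genes, led by Ube2f (1.88-fold) and Ube2d2a (1.85-fold). Antigen processing genes, a list that shares Psmb10 and Psme1 with the proteasome set, had 6 expressed genes and a score of 0.19 in sample 3. Its widest members, H2-D1 (1.78-fold) and B2m (1.73-fold), were highest in sample 3 and lowest in sample 4, whereas Psmb10 was highest in sample 1 and lowest in sample 5. The mean pairwise r, 0.24 for the proteasome genes, was 0.20 for antigen processing, 0.16 for COP9 signalosome and eIF3 and 0.14 for the chaperonin. It was 0.12 for the ubiquitin-conjugating enzymes, 0.06 for ubiquitin supply and -0.20 for Odc1, Oaz2 and Azin1. The differences between lists were not tested.

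**Figure D5:**
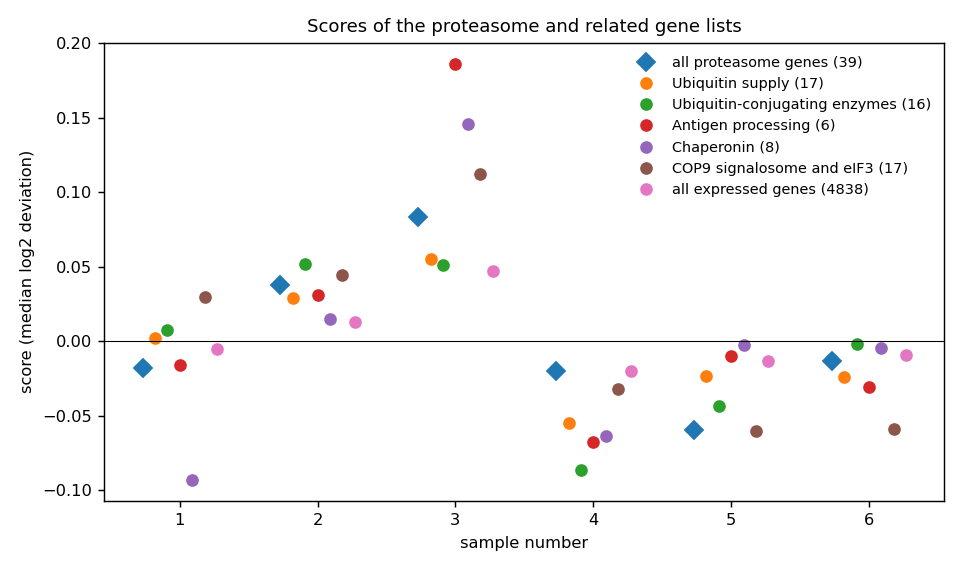
Score (median log2 deviation, vertical axis) in samples 1 to 6 (horizontal axis) of the proteasome genes (diamonds), 5 related lists and all expressed genes (circles), with the number of expressed genes in brackets. The lists shown lie above 0 in sample 3, and the proteasome genes are at -0.06 in sample 5, next to COP9 signalosome and eIF3.

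Scores of cell type markers differed between the samples as well. As a check of the labelled tissue, of 6 measured marker genes of hippocampal neurons 5 were expressed and their score ran from -0.37 in sample 1 to 0.14 in sample 5. All 6 measured oligodendrocyte markers were expressed, with the lowest scores in samples 1 (-0.27) and 2 (-0.21). The 4 meningeal markers were highest in sample 2 (0.56) and lowest in samples 4 and 5 (-0.25 each), and the 2 expressed of 3 choroid plexus markers scored from -2.92 in sample 1 to 1.72 in sample 6. Astrocyte (4 of 4 expressed), microglia (4 of 5) and endothelial (1 of 4) markers had their lowest scores in samples 1, 1 and 3, at -0.24, -0.13 and -0.31. Sample 1, where Psmb2, Psmb6 and Psmc6 were lowest, thus also had the lowest score of neuronal, oligodendrocyte, astrocyte and microglial markers, while sample 5 was lowest only in the meningeal ones. The mean r within a list was 0.70 for oligodendrocyte and 0.65 for meningeal markers. It was 0.007 for neuronal, -0.21 for astrocyte and -0.012 for microglial markers, so these lists did not move as one. Their low scores in sample 1 are not shown to hold for each member. The part of cell makeup in the proteasome values was not tested.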

How the data were processed

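Each of 6 hippocampus RNA samples was measured on 1 array of 12488 probe sets, 66 of them controls. The deposited values are signal intensities on a linear scale. The scanner, summary method and scaling were not given in the sources used here. Trimming each array's intensities at percentiles 2 and 98 leaves a mean of 150.0 on every one, so the deposited signals already share a level. Gene names come from the platform annotation, where 10833 held 1 gene symbol, 396 several and 1193 none, and sequences came from RefSeq (GRCm38.p6).

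From these, each array was divided by its median over non-control probe sets, floored at 0.2 and put on the log2 scale (Python 3.11.15, pandas 2.3.3). No sample has a group, so ranges, scores and correlations are descriptions. Dixon's ratio was set against its critical value only to mark single samples, and no other test was run. Alternatives were quantile normalization, no scaling beyond that of the deposited signals, the median over probe sets, other filters and leaving out each sample. The code was tested on simulated data. Where a replicate spread was lacking, a score was said to move when it changed by more than its SD over the 6 samples, and a count, range or correlation when it changed by over 1.5 times. The genes described in full are the proteolytic subunits, the widest and narrowest expressed gene of each class, those past 1.5-fold and those with a sample apart by Dixon's ratio, with Psmd4, Psmd8 and Psmd14 added after their values were seen. For related lists the 2 widest genes are named, and others by role. The members and lists were chosen with earlier results of these data known. The number of arrays limits the precision.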

Additional observations from a re-analysis of the deposited data

Results flagged for a closer look

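For 7 of 39 expressed proteasome genes 1 sample stood apart from the other 5, its gap to the nearest sample taking up more of the whole range than Dixon's critical value for 6 values. Such gaps are met by chance in about 1 in 20 sets of values, and 5.89% of all expressed genes had one. The labels put these samples in no group. The share was 0.776 for Psma6, 0.736 for Psme4, 0.667 for Psmg3 and 0.655 for Psmb3, all with sample 5 low. It was 0.657 for Psmb1 with sample 2 low. It was 0.768 for Psmd3 and 0.658 for Psma7 with sample 3 high. In unscaled signals and with quantile normalization Psma6, Psmb3, Psme4 and Psmg3 stayed past the critical value, and Psma7, Psmb1 and Psmd3 did not, while Psmd8 passed it with quantile normalization. The brightest further probe set of Psmb1 and the further one of Psmg3 did not share these gaps' profile, with r of -0.32 and -0.26 against the chosen probe set over 6 samples. Psma6, Psme4, Psmb3, Psma7 and Psmd3 have 1 probe set each. What set these samples apart was not tested.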

How the results depend on the processing

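The median range of the 39 expressed genes (0.27 to 0.33) and the counts of genes lowest in sample 1 (10 to 14) and sample 5 (11 to 12) stayed within the limits set above under the alternatives run for them. Sample 3 did not. With quantile normalization its member score was 0.030 (0.08 as reported), it was highest for 11 genes and lowest for 2, samples 5 and 6 were highest for 4 and 5, and the scores of sample 3 were 0.0076 for the beta ring, 0.022 for the ATPases, 0.018 for the activators, 0.0045 for ubiquitin supply and 0.043 for COP9 signalosome and eIF3. With no scaling sample 3 was highest for 12 genes, samples 5 and 6 for 4 and 5, and its scores were 0.023 for the ATPases and 0.010 for the activators. The mean pairwise correlation of 0.24 became 0.074 with quantile normalization, 0.086 with no scaling and 0.12 relative to all expressed genes, and 0.062 to 0.28 with samples left out in turn, lowest without sample 3. Leaving out samples gave 3 to 6 genes past 1.5-fold, lowest without sample 5, and a score of sample 5 between -0.086 and -0.0052, nearest 0 without sample 3. Leaving 1 sample out can set scores to 0, since with an odd number of samples a gene's median is 1 of its own values. Not all scores shrank, as that of sample 3 was 0.12 without sample 2. With the median over probe sets, 3 genes were lowest in sample 2, and scores were 0.10 for the beta ring in sample 3, 0.19 for the ATPases in sample 2, -0.27 and 0.032 for the activators in samples 5 and 6 and 0.013 and -0.40 for the chaperones in the same samples. With no filter 7, 4 and 2 genes were highest in sample 1, highest in sample 5 and lowest in sample 3. With unshared probe sets only, added after seeing the data, 3 and 1 were highest in samples 4 and 5, and 0 and 2 lowest in samples 3 and 6. Causes were not tested. No paired analysis was possible because no sample has a group.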
